A study of Mus musculus with 24 samples.

Results

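The C-terminal fragment of the transcription factor subunit p65/RelA was set against full-length wild-type p65 in a mouse leukaemia line. The comparison takes every array labelled with either transfection, 4 of p363-549 and 4 of WT, out of 24 arrays in 6 groups. All samples were DA1-3B cells, a Bcr-Abl-positive mouse line of strain C3H eOuJ, each transfected with plasmid and read by 1-colour arrays of total RNA. The p363-549 cells received a plasmid for the p65 residues that the name gives, the part that follows the cleavage site at residue 361 and ends at residue 549. The WT cells received a plasmid for the whole protein, and the VOID cells, used here for levels only, received an empty plasmid. The protocol text starts the fragment at residue 362, 1 residue before the sample names do. Nothing in the labels tells whether the replicates were separate cultures, and the p-values therefore reflect only the scatter among these samples, which may be technical. How many cells took up the plasmid is not given in the sources used here, so a smaller number of responding cells and a smaller response per cell cannot be told apart in these bulk RNA samples.

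NF-kB is a family of dimers that bind DNA through a Rel homology domain in the N-terminal part of each subunit. In p65 the C-terminal part carries the transactivation domains, so the fragment p363-549 holds those domains without the DNA-binding one, while WT holds both. In resting cells IkB proteins keep the dimers in the cytoplasm, and active NF-kB switches on the genes of its own inhibitors, among them Nfkbia (IkB-alpha) and Tnfaip3 (A20), along with cytokines, lymphotoxins and adhesion molecules.

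Signal is given throughout as a log2 relative signal, the log2 of the deposited processed signal minus the array's own 75th percentile, so that 0 is the level of that percentile. Changes are p363-549 minus WT on this scale, with limma standard errors. The 75th percentile itself was 640.9 to 744 intensity units on the p363-549 arrays and 779.5 to 1035 on the WT arrays, without overlap. Between 49.8% and 51.5% of spots were well above background on the p363-549 arrays, against 49.4% to 52.1% on the WT arrays, and the number of arrays limits the precision. Of the 9 haematopoietic markers, 7 were tested and all 7 were well above background on all 8 arrays, including Ptprc (CD45) and the interleukin-3 receptor gene Il3ra, while Cd34 and Kit did not pass the filter on dim probes. Among the 8 arrays, p363-549 replicate 4 stood apart the most. Once the average of the 6 groups was subtracted, p363-549 replicate 4 correlated across all genes tested at r = -0.48 with the other 3 arrays of its group and at r = 0.80 with the group that received both fragments. The genes are not independent replicates, and p363-549 replicates 1 to 3 correlated with their own group at only -0.03, 0.17 and -0.10. WT replicates 1 to 4 did so at 0.25, 0.57, -0.17 and -0.08, so WT replicates 3 and 4 did not resemble their own group either. The group with both fragments was uneven too, at 0.85, 0.70, 0.12 and 0.17 for its replicates 1 to 4. The changes below are therefore given with all arrays and without p363-549 replicate 4 for each gene that passed with all arrays and for each gene group described by its median.

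The transfected gene came first. Rela signal was 4.79, 4.86, 4.80 and 4.99 on the p363-549 arrays, against 4.73, 4.67, 4.83 and 4.83 on the WT arrays and 4.24 to 4.50 on the VOID arrays. The p363-549 and WT ranges overlapped, and the change was 0.09 ± 0.10 with all arrays (limma, unadjusted p = 0.343) and 0.05 ± 0.10 without p363-549 replicate 4. The Rela probe lies at chr19:5648070-5648129 (mm9, per the file headers) and starts at base 2648 of its transcript. Whether either plasmid holds that stretch is not given in the sources used here, so the probe does not check the labels. The genes joined in the line's oncogene, Abl1 and Bcr, did not pass the test, with changes of 0.00 ± 0.20 and -0.06 ± 0.19.

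Few genes separated the fragment from the whole protein. With all arrays 19 of 15059 genes passed the limma test at an adjusted p under 0.05, which is 0.126% of the genes tested, with 5 higher (0.0332%) and 14 lower (0.093%) in p363-549 than in WT. Without p363-549 replicate 4 the number was 42 (0.279%), with 11 higher (0.073%) and 31 lower (0.206%). Between these 2 results 17 genes were shared, 2 were lost and 25 were gained. At an unadjusted p under 0.05, 791 genes passed with all arrays and 1132 without replicate 4. The 4 p363-549 arrays did not overlap the 4 WT arrays for 571 genes, or 3.79%, of which 426 were higher (2.83%) and 145 lower (0.963%) in p363-549. Without replicate 4 the groups did not overlap for 1469 genes, or 9.75%. When the genes were ranked by brightness and cut into 3 equal parts, the brightest part held 297 of the 426 higher ones. A fit with the arrays' 75th percentile as a covariate called 8 genes, 0 higher and 8 lower, so that the 5 rises described below did not pass in it, and a fit to the 8 arrays alone called 7, likewise 0 higher and 7 lower. The median change over all genes was 0.06 in both results. The plot of the genes that passed sets the changes with and without replicate 4 side by side.

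**Figure D1:**
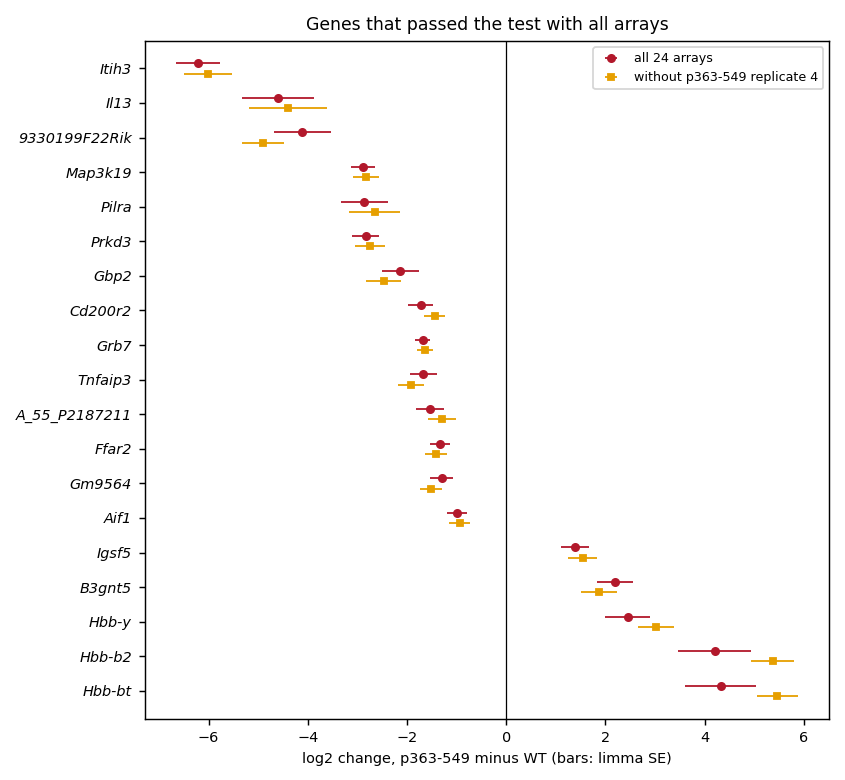
Log2 change, p363-549 minus WT (horizontal axis), of the 19 genes that passed the limma test with all arrays, with bars for the standard error. Circles are the fit to all 24 arrays and squares the fit without p363-549 replicate 4: each gene kept its side of 0, and the beta-globin genes Hbb-bt and Hbb-b2 moved the most to the right, by over 1 log2 unit.

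Most genes that NF-kB is known to switch on had changes below 0, and of these the inhibitor Tnfaip3 passed the test with all arrays. Tnfaip3 encodes A20, a ubiquitin-editing enzyme that restrains NF-kB signalling. Its signal was -2.41, -2.48, -1.75 and -1.23 on the p363-549 arrays, against -0.29, -0.44, -0.34 and -0.10 on the WT arrays. All 4 p363-549 arrays lay below all 4 WT arrays, with replicate 4 the nearest to them. The change was -1.67 ± 0.27 (3.19-fold lower, limma adjusted p = 0.00619) and became -1.92 ± 0.26 without replicate 4 (adjusted p = 5.36e-04). On the 3 slides that held an array of each group the differences were -2.30, -2.14 and -1.31. Arrays on a slide correlated at -0.06 once group means were taken out (limma's estimate over all genes). Differences within slides, here and below, are therefore a description and not matched pairs. The call ended in a fit with the arrays' brightness as a covariate, at an adjusted p of 0.0684, and in a fit to the 8 arrays alone, at 0.209.

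Of the 51 NF-kB target genes listed, 35 were measured. With all arrays 0 were higher and 1 was lower by the limma test, and without p363-549 replicate 4 the numbers were 0 and 6, to be read against 0.126% and 0.279% of all genes. By sign alone, 27 of the 35 changes were below 0 (77.1%), against 37.1% of all genes tested, and the median change was -0.26, against 0.06 over all genes. In 5 of the 35 the groups did not overlap, all lower in p363-549, where 0.963% of all genes did so in that direction. Without replicate 4 the median was -0.25 and 29 changes were below 0. The members were chosen with earlier results of these data known, and no list was tested as a set.

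Nfkbia, which encodes IkB-alpha, had 3.43, 3.13, 4.06 and 4.35 on the p363-549 arrays, against 5.08, 4.82, 5.15 and 5.02 on the WT arrays. The groups did not overlap, but the change of -1.28 ± 0.29 passed the test only without replicate 4, at -1.48 ± 0.30 (limma adjusted p = 0.121 with all arrays and 0.0272 without). Lymphotoxin beta (Ltb), a membrane-bound TNF-family ligand, had 3.30, 3.45, 3.82 and 4.48, against 4.80, 4.90, 4.08 and 5.15 in WT. Replicate 4 lay inside the WT range, and Ltb fell by 1.21 ± 0.22 without it (limma adjusted p = 0.01). Its partner Lta fell by 2.25 ± 0.44 without replicate 4 (limma adjusted p = 0.0223). With all arrays the Lta change was -1.81 ± 0.46 and did not pass (limma adjusted p = 0.263). Lta had -4.43, -5.23, -4.54 and -2.97 in p363-549 and -1.85, -1.75, -3.24 and -3.11 in WT. Here replicate 4 was brighter than 2 of the WT arrays, and Lta was well above background on 2 of 4 p363-549 arrays.

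The cytokine gene Il6 had -0.23, 0.03, 0.96 and 1.64 on the p363-549 arrays, against 1.97, 2.04, 1.85 and 1.61 on the WT arrays. Icam1, the adhesion molecule that binds leukocyte integrins, had -3.39, -2.72, -2.51 and -1.30, against -1.91, -1.52, -1.67 and -1.46 in WT. For both genes replicate 4 had the highest value of its group and reached the WT level. Without it Il6 fell by 1.62 ± 0.33 (limma adjusted p = 0.0298) and Icam1 by 1.23 ± 0.25 (adjusted p = 0.0272), while with all arrays neither passed (0.405 and 0.863). Other members gave no call in either result. Traf1, an adaptor of TNF receptors, had a change of -1.04 ± 0.27 and Nfkbie had -0.53 ± 0.20, both with groups that did not overlap. Tnf had -0.44 ± 0.30, and Nfkb1, which encodes the p50 precursor, had 0.44 ± 0.20.

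**Figure D2:**
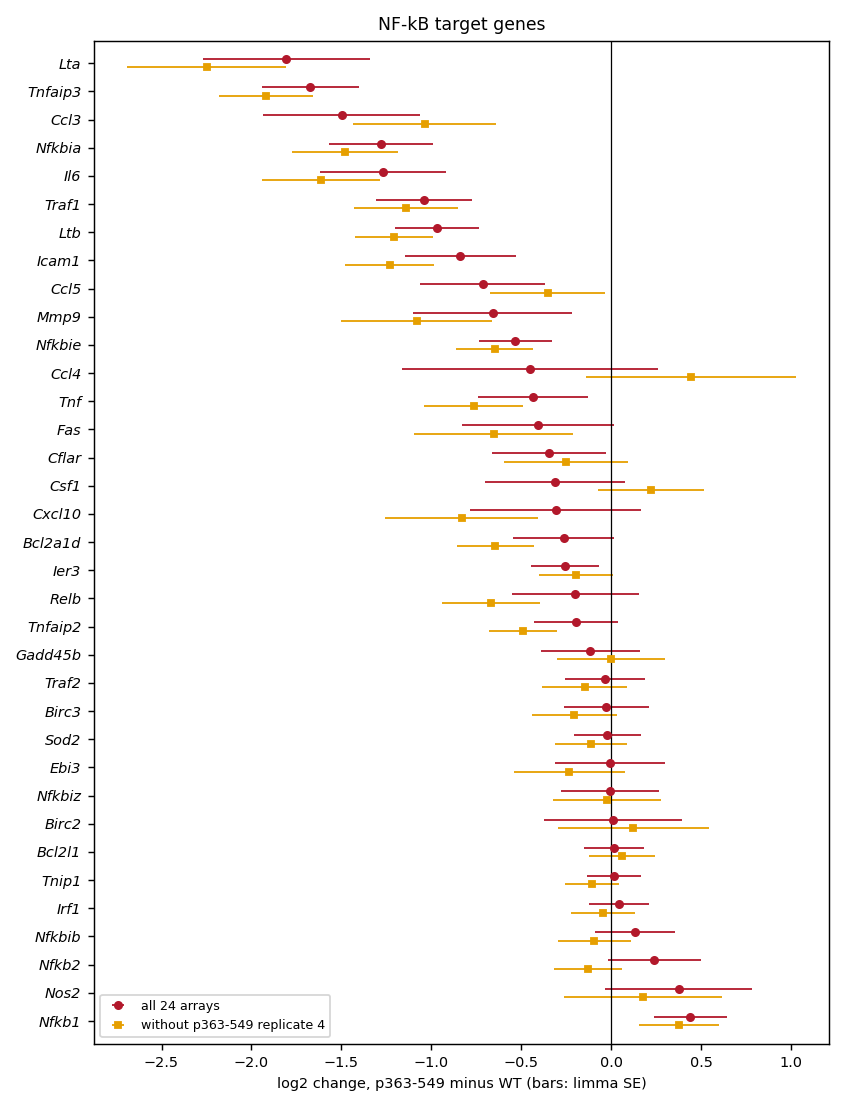
Log2 change, p363-549 minus WT (horizontal axis), of the 35 measured NF-kB target genes with bars for the limma standard error, with all 24 arrays (circles) and without p363-549 replicate 4 (squares). The changes run from -1.81 (Lta) to 0.44 (Nfkb1) with all arrays, and 27 of the 35 lie left of 0.

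The kB consensus, the 10-base motif that NF-kB dimers bind, was looked for on both strands of the 250 bases before the transcription start in RefSeq promoters (GRCm38.p6), a palindromic match counting once. Among the 6 NF-kB target genes that passed in either result, 4 held a match (Tnfaip3, Nfkbia, Ltb and Il6). These stretches are shown because they hold the matches to the consensus in genes just described, with the match in capitals.
Tnfaip3 (chr10:19015506-19015555, minus strand): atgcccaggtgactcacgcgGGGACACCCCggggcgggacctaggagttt
Tnfaip3, nearer the start (chr10:19015411-19015442, minus strand): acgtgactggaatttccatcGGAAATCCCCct
Nfkbia (chr12:55492648-55492696, minus strand): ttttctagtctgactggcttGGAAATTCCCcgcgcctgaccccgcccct
Ltb (chr17:35194400-35194449, plus strand): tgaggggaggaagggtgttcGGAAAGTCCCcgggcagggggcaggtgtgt
Il6 (chr5:30013050-30013099, plus strand): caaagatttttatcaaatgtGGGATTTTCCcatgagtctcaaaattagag
Each is written 5′ to 3′ along the gene's own strand. A match is a description of letters in this window and not evidence of binding. A match stood in 8.23% of all 27025 genes with an entry, in 10.3% of the 9612 tested genes with one, and in 15 of the 28 measured NF-kB targets with one (53.6%). Of the 14 genes lower with all arrays, 10 had an entry and 1 held a match, Tnfaip3. Of the 31 lower without replicate 4, 26 had an entry and 7 held a match (26.9%). None of the 3 higher genes with an entry held one.

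The signalling parts gave no call. Of the 28 measured subunits, IKK kinases and adaptors, 0 passed with all arrays and 0 without replicate 4, with a median change of 0.01 and of -0.02. Of the 14 measured IkB proteins and feedback inhibitors, only Tnfaip3 passed with all arrays, and Nfkbia joined it without replicate 4. By sign 9 of the 14 were below 0 with all arrays and 11 without replicate 4, against 37.1% and 40.9% of all genes tested. In 3 the groups did not overlap, all lower in p363-549, where 0.963% of all genes did so in that direction. Members near 0 with all arrays included Nfkbib, Nfkbiz, Cyld and Tnip1, with changes of 0.13, -0.01, -0.10 and 0.01.

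The largest difference belonged to Itih3, a heavy chain of the inter-alpha-trypsin inhibitors, which bind hyaluronan outside the cell. Its probe (chr14:31721835-31721894, mm9) gave -5.84, -6.62, -6.56 and -7.11 on the p363-549 arrays, against -0.39, -0.49, -0.35 and -0.05 on the WT arrays and -2.38 to -1.92 on the VOID arrays. The p363-549 arrays were all below every other array named here, and none was well above background there. Itih3 was at least 21.5-fold lower in p363-549, taken against the array's lowest signal among probes well above background, or the probe's own signal where that was higher. The means were -6.53 ± 0.52 in p363-549 and -0.32 ± 0.19 in WT (SD, n = 4 each, limma adjusted p = 7.55e-08), and the slides that held both groups gave -5.79, -6.26 and -6.07. The fit without replicate 4 gave -6.02 ± 0.48, at least 20.2-fold lower by the same bound.

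Il13, a cytokine of type 2 immunity, had -6.91, -5.48, -6.05 and -6.94 on the p363-549 arrays, against -2.65, -1.12, -1.97 and -1.23 on the WT arrays. It was not well above background on any p363-549 array and was at least 8-fold lower there (limma adjusted p = 0.0043), with means of -6.34 ± 0.71 in p363-549 and -1.74 ± 0.71 in WT (SD, n = 4 each). Without replicate 4 it was at least 7.51-fold lower (adjusted p = 0.00979 by limma). Normexp background correction gave a change of only -1.94 and ended the call, at an adjusted p of 0.243. Of the 19 measured chemokine and cytokine genes, Il13 alone passed with all arrays, and Il6 joined it without replicate 4. Their median change was -0.34 with all arrays and -0.16 without replicate 4. Il4, another type 2 cytokine, had a change of -1.80 ± 0.62 and did not pass.

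A pair of kinase genes was near the floor of the arrays in p363-549 and a little above it in WT. Map3k19, a kinase of the MAP3K family, had -6.69, -6.51, -6.41 and -6.79, against -4.00, -3.76, -3.57 and -3.54 in WT. Prkd3, a member of the protein kinase D family, had -6.92, -6.58, -6.94 and -7.18, against -4.23, -4.01, -4.57 and -3.48. Neither was well above background on any p363-549 or VOID array. The lower bounds were therefore small, at least 2.04-fold lower for Map3k19 and at least 1.59-fold lower for Prkd3, beside fitted changes of -2.88 ± 0.24 and -2.83 ± 0.27 (limma adjusted p = 4.25e-07 and 3.88e-06). Normexp correction gave -0.97 and -0.91 and ended both calls, at adjusted p values of 0.928 and 0.958. Without replicate 4 both still passed, and Map3k19 was at least 1.91-fold lower. A further Map3k19 probe had a change of -2.69. The mean of the main Map3k19 probe was -3.72 in WT and between -6.77 and -6.33 in every other group. That probe therefore passed the filter on dim probes only through WT, the group where it was high, and its adjusted p is not independent of that.

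Of the receptors of myeloid cells, 2 were lower. Cd200r2, a member of the CD200 receptor family, had -1.61, -1.91, -1.77 and -2.88 on the p363-549 arrays, against -0.39, -0.15, -0.35 and -0.38 on the WT arrays and 1.93 to 2.64 on the VOID arrays. The 3 groups did not overlap, and p363-549 was the lowest. The change from WT was -1.72 ± 0.25 (3.3-fold lower, limma adjusted p = 0.00168), with -1.44 ± 0.22 without replicate 4. Within slides it was -1.23, -1.56 and -1.62, and the fit to the 8 arrays alone ended the call at an adjusted p of 0.174. An unnamed probe, A_55_P2187211, maps close by (chr16:44914728-44914787, beside the Cd200r2 probe at chr16:44915823-44915882, mm9) and had a change of -1.53 ± 0.28. Its adjusted p was 0.0199 with all arrays and 0.053 without replicate 4, when the change was -1.29. It was named after its values were seen.

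Pilra, an inhibitory immunoglobulin-like receptor, had -4.40, -4.57, -2.74 and -4.73 on the p363-549 arrays, against -2.08, -1.40, -0.90 and -0.62 on the WT arrays. The groups did not overlap, with replicate 3 the brightest of the p363-549 arrays and the only one well above background. The change was -2.86 ± 0.48 (limma adjusted p = 0.0082), or -2.65 ± 0.52 without replicate 4 (0.0212), and the other 2 probes of the gene gave -3.01 and -4.12. The call ended without p363-549 replicate 1, p363-549 replicate 2 or WT replicate 4, at adjusted p values of 0.05, 0.0517 and 0.0525, and with slide as a fixed block, at 0.0588. Under normexp correction the change was -1.69 with an adjusted p of 0.0679.

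Of the 18 measured CD200 receptors and other myeloid receptors, 0 were higher and 2 were lower with all arrays, where 0.0332% and 0.093% of all genes were. Without replicate 4 the number of lower ones was 3, with Clec4e added (Mincle, a C-type lectin that senses microbial glycolipids), with -0.29, 0.02, 0.04 and 2.43 on the p363-549 arrays, against 1.78, 2.07, 1.47 and 2.20 on the WT arrays. Replicate 4 was above all 4 WT arrays there, and Clec4e fell by 1.96 ± 0.29 only when it was left out (limma adjusted p = 0.00182, against 0.681 with all arrays). The list's median change was -0.996, or -0.76 without replicate 4. By sign 16 of 18 members were below 0 with all arrays, against 37.1% of all genes tested. Among them were Cd200r1 at -0.28 ± 0.29, Cd200r4 at -0.87 ± 0.36 and Pilrb1 at -2.95 ± 0.62, none of which passed. Pilrb1 was not well above background on any p363-549 array, and the bound was at least 1.88-fold lower.

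The mean level of the mast cell markers was the lowest of the 8 arrays on p363-549 replicate 4. The mast cell protease Cma1 had 0.97, 1.55, 1.87 and -3.69 in p363-549, against 2.36, 3.02, 3.22 and 2.62 in WT, and carboxypeptidase Cpa3 had -0.38, 0.38, 0.29 and -5.65, against 0.59, 1.58, 1.34 and 1.04. The other measured members did not all go the same way. With all arrays Mcpt8 had a change of -1.39, Fcer1a -0.68 and Gata2 -0.12, while Hdc had 0.02 and Tpsb2 0.31. Mcpt8 was not well above background on any p363-549 array, and its bound was at least 1.32-fold lower. Of the 7 measured members of the list 0 passed with or without replicate 4, and the median change was -0.68 with it and -0.06 without it. The mean level of the 7 genes was -3.08 on replicate 4 and -1.11 to -0.91 on p363-549 replicates 1 to 3, against -0.71 to -0.29 on the WT arrays. Their part in the receptor and cytokine results was not tested.

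The adaptor gene Grb7, whose protein binds phosphorylated receptor tyrosine kinases, had a narrow spread. It had -0.29, -0.23, 0.16 and -0.31 on the p363-549 arrays, against 1.54, 1.34, 1.62 and 1.53 on the WT arrays, with -0.26 to 0.21 on the VOID arrays. The p363-549 arrays thus lay at the level of the empty plasmid and clear of WT. The change was -1.68 ± 0.15 (3.2-fold lower, limma adjusted p = 1.54e-06), the differences within slides were -1.82, -1.85 and -1.18, and the call held in all 24 alternatives, with -1.63 ± 0.16 without replicate 4.

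Ffar2, the receptor for short-chain fatty acids, had -0.50, -0.79, -0.79 and -0.41 on the p363-549 arrays, against 0.72, 0.81, 0.84 and 0.49 on the WT arrays. It was named after its values were seen. Its change of -1.33 ± 0.21 (2.52-fold lower, limma adjusted p = 0.0043) also held in all 24 alternatives, with -1.41 ± 0.22 without replicate 4. Aif1, a calcium-binding protein of macrophages that was named in the same way, had -0.49, -0.91, -0.72 and -0.90, against 0.42, 0.31, 0.10 and 0.10. The groups did not overlap, but the change of -0.99 ± 0.20 was close to the threshold (limma adjusted p = 0.0452). It passed in 9 of 24 alternatives, and leaving out any 1 of the 8 arrays ended the call, at adjusted p values of 0.0573 to 0.185 (0.0733 and a change of -0.94 ± 0.21 without p363-549 replicate 4), as did slide as a fixed block, at 0.206.

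Of the interferon-stimulated genes, Gbp2 passed the test with all arrays. Gbp2, an interferon-induced GTPase, had -6.16, -5.80, -6.79 and -4.89 on the p363-549 arrays, against -3.90, -3.66, -4.38 and -3.17 on the WT arrays. It was well above background on 1 of 4 p363-549 arrays and on all 4 WT arrays, with a change of -2.13 ± 0.37 (limma adjusted p = 0.012) and of -2.47 ± 0.36 without replicate 4. The array above background was replicate 4, so the remaining 3 give only a bound, at least 1.84-fold lower. The call ended without p363-549 replicate 1 or 3 or WT replicate 2 or 4, at adjusted p values of 0.0615 to 0.0781, and under normexp correction the change was -0.88. Gbp3 passed only without replicate 4, at -2.43 ± 0.44 (adjusted p = 0.01), with -4.14, -4.18, -5.01 and -1.40 in p363-549 and -1.77, -1.83, -2.85 and -1.60 in WT. Of the 32 measured genes of the list 0 were higher and 1 was lower with all arrays, where 0.093% of all genes were lower, and 2 were lower without replicate 4, against 0.206%. The median change was -0.08, or -0.20 without it, and Isg15 and Irf7, an antiviral ubiquitin-like protein and an interferon regulator, had -0.03 and -0.21 with all arrays.

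A pair of gene models was lower too, both named after their values were seen. 9330199F22Rik had -5.87, -6.62, -6.66 and -3.18, against -1.60, -1.38, -1.80 and -1.13 in WT, a change of -4.11 ± 0.57 (limma adjusted p = 0.00139). Replicate 4 was the only p363-549 array well above background for it, and the change was -4.91 ± 0.42 without that array, which by the bound is at least 9.04-fold lower. The fit to the 8 arrays alone ended the call, at an adjusted p of 0.209. Gm9564 had a change of -1.30 ± 0.23 (adjusted p = 0.0153), or -1.52 ± 0.22 without replicate 4. That call ended without p363-549 replicate 1, 2 or 3 or WT replicate 1 or 2, at 0.0675 to 0.0935.

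**Figure D3:**
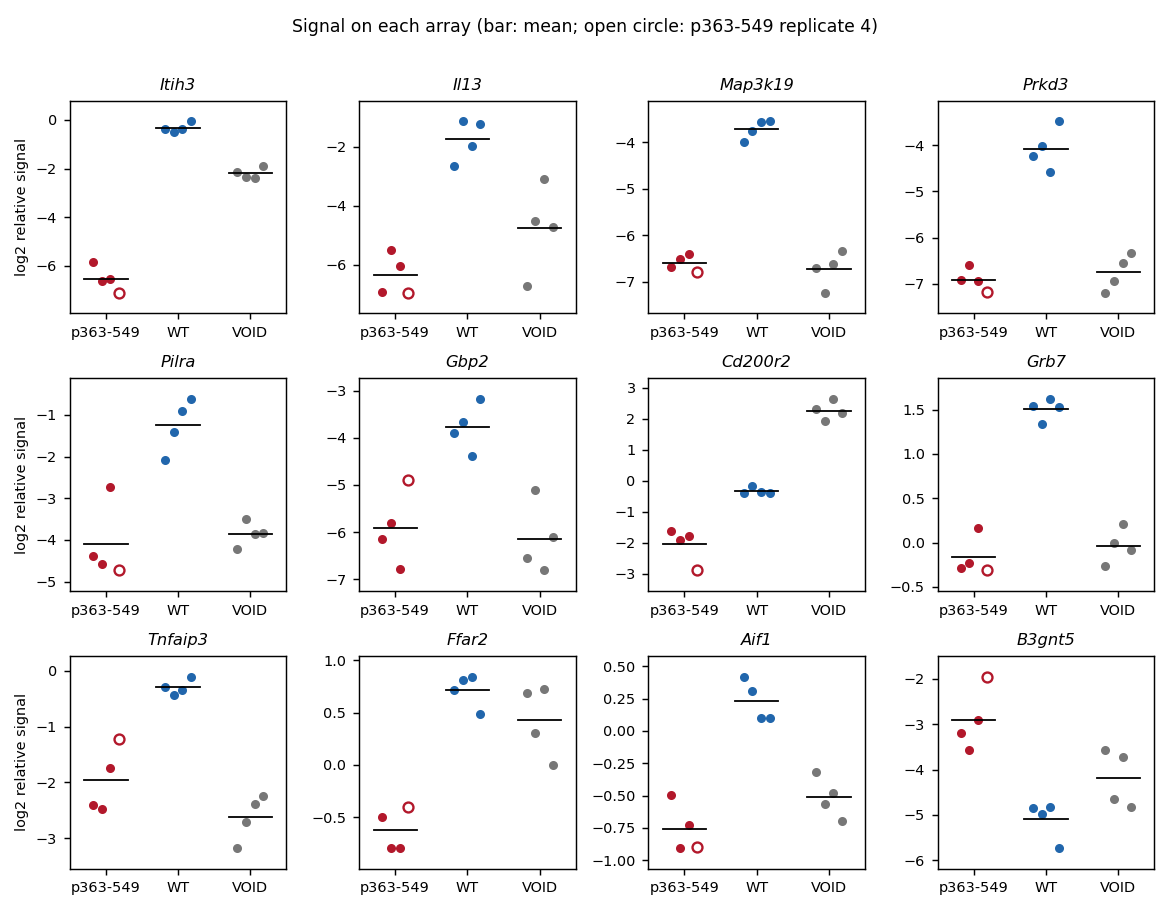
Log2 relative signal (vertical axis) of 12 genes that passed the test with all arrays, on each p363-549, WT and VOID array, with a bar at each mean and an open circle for p363-549 replicate 4. The p363-549 and WT points do not overlap in any panel, p363-549 lies above WT for B3gnt5 alone, and both lie below VOID for Cd200r2.

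Genes of the beta-globin cluster were the largest rises. Globins carry oxygen in red blood cells, Hbb-bt and Hbb-b2 being adult beta chains and Hbb-y and Hbb-bh1 embryonic ones. Hbb-bt had 4.46, 4.97, 5.15 and 0.28 on the p363-549 arrays, against -0.94, -0.42, -0.24 and -0.84 on the WT arrays and 4.03 to 5.31 on the VOID arrays. Replicates 1 to 3 lay inside the VOID range, and replicate 4 lay near the WT arrays though above all 4 of them. The change was 4.32 ± 0.72 (20-fold higher, limma adjusted p = 0.0082), and 5.47 ± 0.42 without replicate 4 (44.3-fold, adjusted p = 3.48e-07). The slides that held both groups, none of which carried replicate 4, gave 5.30, 5.21 and 5.57. With replicate 4 kept, leaving out p363-549 replicate 1, 2 or 3 ended the call, at adjusted p values of 0.05 to 0.0517, and brightness as a covariate gave 4.25 at 0.0723.

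Hbb-b2 followed the same order, with 3.23, 3.58, 3.70 and -1.17 on the p363-549 arrays, against -2.10, -1.59, -1.67 and -2.12 on the WT arrays. Its change was 4.20 ± 0.74 (limma adjusted p = 0.012) and 5.37 ± 0.43 without replicate 4 (adjusted p = 3.48e-07). The call ended without p363-549 replicate 1, 2 or 3 or WT replicate 1 or 4, at adjusted p values of 0.0538 to 0.0849. Hbb-y had -1.99, -1.61, -2.47 and -4.33, against -4.98, -5.45, -4.01 and -5.76 in WT, where replicate 4 overlapped the WT range. Its change was 2.45 ± 0.45 (adjusted p = 0.0199) and 3.02 ± 0.37 without replicate 4. Leaving out p363-549 replicate 1, 2 or 3 or WT replicate 1, 2 or 4 ended it, at 0.0651 to 0.131, as did slide as a fixed block, at 0.0513, and normexp correction gave 0.79. It was well above background on 2 of 4 WT arrays. The adult beta-globin genes are near-identical in sequence, so signal on the Hbb-bt, Hbb-b2 and Hbb-bs probes cannot be assigned to 1 gene with certainty. These probes may therefore not count as separate genes in the numbers that follow.

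Of the 17 measured globin and haem genes, 3 were higher and 0 lower with all arrays, where 0.0332% of all genes were higher, and 6 were higher without replicate 4, against 0.073%, when Hba-a2, Hbb-bh1 and Hbb-bs also passed at 2.01 ± 0.34, 3.46 ± 0.55 and 4.57 ± 0.62 (limma adjusted p = 0.0067, 0.00276 and 5.36e-04). Hba-a1, the other alpha chain, had 1.94 ± 0.43 and did not pass. Among enzymes of haem synthesis, Alas1, Alad, Urod and Fech had changes of -0.06, 0.25, -0.07 and -0.07 with all arrays and did not pass. The list's median change was 0.11, or 0.18 without replicate 4. Among the erythroid and megakaryocyte markers outside the globins, the regulators Gata1, Klf1, Tal1 and the erythropoietin receptor Epor had -0.08, -0.03, 0.20 and -0.04, and none passed.

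**Figure D4:**
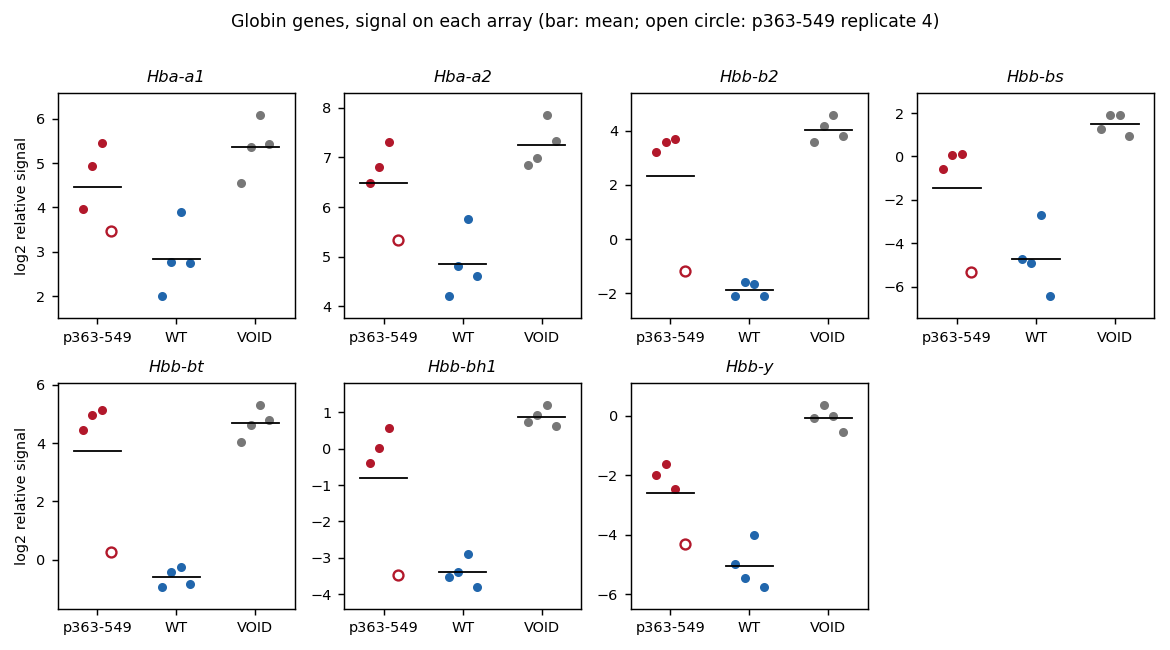
Log2 relative signal (vertical axis) of the 7 measured globin genes on each p363-549, WT and VOID array, with a bar at each mean and an open circle for p363-549 replicate 4. For Hbb-bt the filled p363-549 points lie at 4.46 to 5.15, in the VOID range and above WT, while the open circle is at 0.28.

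The other 2 genes that rose were B3gnt5 and Igsf5. B3gnt5, a glycosyltransferase that starts the lacto-series glycolipids, had -3.19, -3.56, -2.91 and -1.95 on the p363-549 arrays, against -4.86, -4.97, -4.83 and -5.73 on the WT arrays. Replicate 4 was the brightest array, and no p363-549 array overlapped WT, where 2 of 4 arrays were well above background. The change was 2.20 ± 0.37 (4.58-fold higher, limma adjusted p = 0.0082) and 1.88 ± 0.36 without replicate 4. It ended without WT replicate 4 (adjusted p = 0.0525) and with slide as a fixed block (0.0593), and normexp correction gave 0.58. Igsf5, an adhesion protein of the immunoglobulin superfamily, had -0.79, -0.72, -0.91 and -1.42, against -2.63, -2.21, -2.75 and -1.82, a change of 1.39 ± 0.28 (adjusted p = 0.0472), or 1.54 ± 0.29 without replicate 4. It passed in 8 of 24 alternatives. Leaving out p363-549 replicate 1, 2 or 3 or WT replicate 1, 2 or 3 ended it, at 0.119 to 0.187.

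For the 25 genes that passed only without p363-549 replicate 4, the place of that array is set by how they were chosen and is given as a description. It was inside the WT range for 13 of them and past it, on the far side from replicates 1 to 3, for 10. It lay between the 2 groups for the other 2, Nfkbia and the zinc transporter gene Slc39a4. Beside the list members above, the genes that fell in this result included Acod1, which makes itaconate in macrophages, with -5.95, -6.50, -6.73 and -3.58 in p363-549, against -3.19, -2.96, -3.62 and -3.01 in WT (limma adjusted p = 0.0027). None of replicates 1 to 3 was well above background for Acod1, which was at least 2.75-fold lower on them. The same held for the complement protease genes C1s1 and C1s2 and for Tesc, with bounds of only 1.09-fold, 1.56-fold and 1.17-fold. The glucose transporter gene Slc2a6 fell by 1.38 ± 0.25, with 0.22, -0.05, 0.01 and 2.34, against 1.36, 1.22, 1.26 and 1.92, so that replicate 4 was the brightest of the 8 arrays. The presenilin gene Psen2, the PI3K-gamma regulatory subunit Pik3r5, the lipid-sensing receptor Gpr132, and Neurl3 and Ly6g6d fell by 1.85, 1.34, 1.71, 1.75 and 1.87. Fam20a, a pseudokinase of the secretory pathway, rose by 1.76 ± 0.33 (adjusted p = 0.0143), with -1.67, -1.32, -1.21 and -2.88 in p363-549 and -3.51, -3.13, -2.41 and -3.56 in WT. These genes were named after their values were seen.

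The level on the VOID arrays shows which construct stood away from the empty plasmid. The comparisons with VOID share its 4 arrays, so the values are given side by side. All p363-549 values here include replicate 4. Rela was higher than in VOID by 0.49 ± 0.10 in p363-549 (limma adjusted p = 0.0176). In WT it was higher by 0.39 ± 0.10, which did not pass (limma adjusted p = 0.0895). For Tnfaip3, p363-549 minus VOID was 0.66 ± 0.27 and WT minus VOID was 2.33 ± 0.27 (limma adjusted p = 0.58 and 2.41e-05). Grb7 had the same order, with -0.13 ± 0.15 in p363-549, which did not pass, and 1.54 ± 0.15 in WT (adjusted p = 2.95e-06). Map3k19 and Prkd3 were not well above background on any p363-549 or VOID array, so those groups are not compared, and in WT they were at least 2.33-fold and 1.82-fold higher than in VOID. Gbp2 was above background on 1 of 4 arrays in both p363-549 and VOID, and its WT minus VOID of 2.37 ± 0.37 passed (0.00155). Nfkbia had 0.42 ± 0.29 in p363-549 and 1.70 ± 0.29 in WT.

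Other genes moved away from VOID in p363-549. Ffar2 fell by 1.05 ± 0.21 in p363-549 (limma adjusted p = 0.0156) and had 0.29 ± 0.21 in WT, which did not pass. Igsf5 had 1.33 ± 0.28 in p363-549 (adjusted p = 0.0239) and -0.06 ± 0.28 in WT. Itih3, not above background in p363-549, was at least 5.85-fold lower there than in VOID (adjusted p = 7.74e-06) and had 1.88 ± 0.45 in WT, which did not pass (0.0711). Cd200r2 fell in both, by 4.31 ± 0.25 in p363-549 and by 2.58 ± 0.25 in WT. Globins were lower in WT than in VOID, with Hbb-bt at -0.97 ± 0.72 in p363-549, which did not pass, and at -5.30 ± 0.72 in WT (adjusted p = 2.4e-04). The p363-549 value of Hbb-bt includes replicate 4, which lay far below VOID. Hbb-y fell in both, by 2.54 ± 0.45 in p363-549 (adjusted p = 0.0064) and by 4.99 ± 0.45 in WT, and Hbb-b2 had -1.71 ± 0.74 in p363-549, which did not pass, and -5.91 ± 0.74 in WT.

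**Figure D5:**
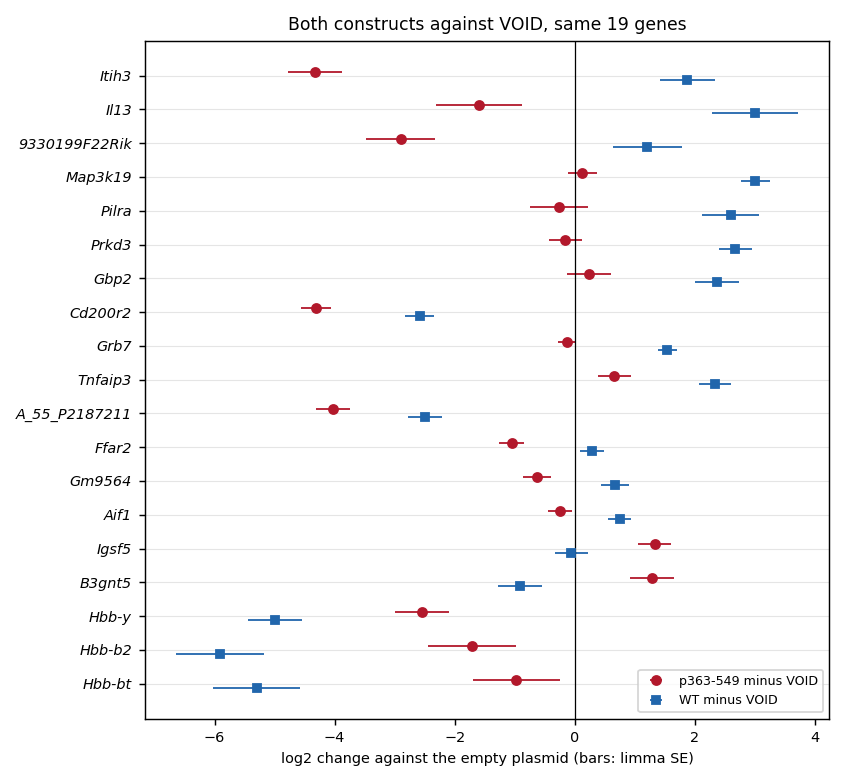
Log2 change against the empty plasmid (horizontal axis) of the same 19 genes, for p363-549 (circles) and WT (squares), with bars for the limma standard error from the fit to all 24 arrays. Differences of probes at background are drawn as measured and are not bounds. In p363-549 Itih3, Map3k19, Prkd3 and Il13 were above background on 0 of 4 arrays, and Pilra, Gbp2 and 9330199F22Rik on 1 of 4. Circles lie near 0 for Pilra and Grb7, whose squares lie at 1.54 or above, while the beta-globin squares lie at -4.99 or below.

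Most other gene groups held no called gene in either result, and their medians follow with all arrays and then without replicate 4. The 29 genes of DNA replication had median changes of 0.07 and -0.11, and the 27 of G2 and mitosis had 0.09 and -0.03, so both turned sign when that array was left out. Of the DNA replication genes 3 were below 0 with all arrays and 21 without it. The medians were 0.03 and -0.04 for 30 genes of oxidative phosphorylation, 0.01 and 0.17 for 18 p53 targets, 0.01 and 0.08 for 25 STAT5 and Bcr-Abl response genes, -0.04 and 0.04 for 14 genes of the BCL2 family, and -0.02 and -0.12 for 22 caspases, death receptors and their inhibitors. They were 0.09 and 0.07 for 17 genes of MHC class I presentation, -0.07 and -0.04 for 24 of the unfolded protein response, and 0.03 and -0.04 for 18 of the Toll-like receptor pathway. Markers of monocytes and macrophages gave 0 calls among 12 measured, with medians of 0.05 and 0.18, and those of neutrophils, B cells, T and NK cells and dendritic cells gave 0 calls among 2, 2, 8 and 3. No called gene does not show that a group was alike in p363-549 and WT: the median standard error of a change was 0.22 over all genes.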

How the data were processed

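Total RNA of DA1-3B cells was labelled with Cy3 and hybridised to 24 Agilent arrays, 4 to a slide on 6 slides, of which 3 held both a p363-549 and a WT array. The authors' scans were quantified with Agilent Feature Extraction 10.7.3.1, per the file headers. The deposited unit is processed signal intensity on a linear scale, with background subtracted by that software and no normalization between arrays. Each deposited spot also carries quality marks, namely saturation, non-uniformity and whether it is well above background; marks of other kinds were not used. The series table holds the same deposited intensity values.

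Log2 processed signal minus each array's 75th percentile was computed. Controls and 185 to 312 flagged spots per array were left out, and no spot was saturated. Probes were kept when some group had all 4 of its arrays well above background, and each of the resulting 15059 genes was represented by its brightest probe on average. The limma fit (version 3.58.1, R 4.3.3) used all 24 arrays with a mean per group and 18 residual degrees of freedom, with Benjamini-Hochberg adjustment over all genes, a threshold of 0.05 and 2-sided tests. The fit was tested on simulated data.

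The naming rule took Rela, Bcr and Abl1, then up to 8 called genes in each direction by size of change (groups without overlap, brighter group fully above background), then up to 3 called members of each of 37 lists. Others are marked where they appear. The comparison, members and lists were chosen with earlier results of these data known. Motifs were counted in RefSeq promoters of GRCm38.p6, and probe positions are those of the array files in mm9.

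Alternatives tried included quantile normalization, normexp correction of the background with an offset of 50, the 75th percentile over detected probes, 2 other filters on dim probes, the series table, blocks for slide (fixed or random) or for sets of sample numbers, fewer arrays, the mean of a gene's probes, array weights, a trended and robust prior, and each array left out. Array brightness as a covariate was chosen after seeing the data.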

Additional observations from a re-analysis of the deposited data

Results flagged for a closer look

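Of 94 groups of 4 arrays examined for genes named here, 10 held a single array farther from the other 3 than Dixon's critical value of 0.829 allows, and 7 of these were p363-549 replicate 4. Chance gives this in about 1 in 20 groups, and the genes were partly chosen because that array mattered to their call. On p363-549 replicate 4, Hbb-bt had 0.28 against 4.46 to 5.15 on the other 3 arrays of the group, Hbb-b2 had -1.17 against 3.23 to 3.70, and Hbb-bs had -5.33 against -0.56 to 0.10. The same array had 2.43 for Clec4e against -0.29 to 0.04, 2.34 for Slc2a6 against -0.05 to 0.22, and -3.79 for C1s1 against -6.52 to -6.16. For the transcript ENSMUST00000098571 it had -6.11 against 0.99 to 1.38, the widest gap of the 10. The other 3 were p363-549 replicate 3 with -2.74 for Pilra (-4.73 to -4.40 on the others) and 0.16 for Grb7 (-0.31 to -0.23), and WT replicate 4 with -5.73 for B3gnt5 (-4.97 to -4.83).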

How the results depend on the processing

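The number of genes called, 19 with all arrays, was 9 under normexp background correction, 29 under quantile normalization, 7 with only probes above background on all arrays, 40 with blocks of consecutive sample numbers, 7 in a fit to the 8 arrays alone, 47 in that fit less p363-549 replicate 4, 102 with the 3 fragment arrays numbered 22 to 24 left out, 1381 with array weights (1107 higher) and 8 with brightness as a covariate (0 higher). Under 7 further alternatives it was 17 to 23, and leaving out 1 array at a time gave 11 to 42. The causes were not tested, beyond the fewer arrays or genes in some fits. All 19 genes kept their sign wherever tested. This did not hold for every result without a call. The Abl1 change ran from -0.17 to 0.15, and the medians of DNA replication and of G2 and mitosis turned sign without p363-549 replicate 4. Itih3, Grb7 and Ffar2 passed in every alternative that tested them, while normexp correction ended 10 of the 19 calls, brightness as a covariate 11 and the 8 arrays alone 13. The Rela change stayed between 0.02 and 0.18 (0.05 to 0.12 with 1 array left out) and was called in 0 alternatives. Slide as a fixed block ended B3gnt5, Pilra, Hbb-y and Aif1. The labels give no replicate numbers that groups share, so no analysis was paired by replicate. The sample numbers run in consecutive sets that each hold an array of every group, and the main fit has no term for these sets. With them as a block 40 genes were called (7 higher, 33 lower), among them 18 of the 19. Whether a set was handled together is not given in the sources used here. Signal near background in 1 group limits, among others, Itih3, Map3k19, Prkd3, Il13, Pilra, Gbp2, 9330199F22Rik, Lta, Acod1, C1s1, C1s2, Tesc, B3gnt5 and Hbb-y.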
